A study of Mus musculus with 3 samples.

Results

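Cluster 2 is a set of 97 neuronal nuclei from tissue dissected as the mouse lateral habenula (LHb), a small epithalamic region that relays forebrain signals to monoaminergic centres. Its members are the nuclei that the authors annotated as neurons and placed in cluster 2, out of 592 neuronal nuclei in 5 clusters and 603 nuclei in all. Nuclei carrying KASH-GFP, a fluorescent tag anchored in the nuclear membrane, were sorted, and each group gave 1 library of single-nucleus RNA from 3 pooled mice. The groups were mothers, virgin males and virgin females, and the nuclei of all 3 carried the label KASH-GFP+ BNST LHb neurons (BNST, bed nucleus of the stria terminalis). The LHb was dissected from coronal sections of 1250 µm. Strain, age, the days after birth in mothers and the way in which the tag reached the neurons were not given in the sources used here.

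The 6 genes that mark the cluster have known roles outside this dataset. Fgf10 is a secreted fibroblast growth factor that acts mainly on a splice form of the receptor Fgfr2 and is needed for lung and limb budding. Egflam encodes pikachurin, a matrix protein that binds dystroglycan at photoreceptor synapses, and Kcp encodes a secreted chordin-like modulator of BMP signals. Heg1 is a membrane protein that recruits the Krit1 complex in endothelium and heart, Cwh43 is known from yeast for remodelling the lipid of GPI anchors, and Lef1 is a DNA-binding partner of β-catenin in Wnt signalling that also marks adult thalamic neurons. The thalamus lies directly beneath the habenula and its relay neurons use glutamate.

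Cluster 2 held 46 of 201 neuronal nuclei in the library of mothers, 25 of 204 in that of virgin males and 26 of 187 in that of virgin females. These counts are shares of 22.9% (exact Clopper-Pearson 95% interval 17.3 to 29.3%), 12.3% (8.09 to 17.6%) and 13.9% (9.29 to 19.7%). The interval of mothers overlapped those of both virgin libraries at its lower end. Intervals here and below cover counting error only, and with 1 library per group the group, the mice pooled, the dissection and the library preparation cannot be told apart, so no test between groups was made. Median depth was 12678 UMIs per nucleus in mothers, 10672 in virgin males and 17512 in virgin females, where a UMI (unique molecular identifier) counts a single captured transcript. Mitochondrial UMIs made up at most 9.78% of a nucleus in mothers, 0.97% in virgin males and 2.69% in virgin females, and 6, 0 and 2 of these nuclei were above 1%. No cell barcode was shared between nuclei. Xist had 645 CPM in mothers, 0 in virgin males and 532 CPM in virgin females (CPM, UMIs of the gene per 1000000 UMIs summed over the nuclei of a set), and Uty of the Y chromosome had 1.6, 195 and 0 CPM, as the sex labels give.

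Fgf10 (chromosome 13, 118669791 to 118792115, plus strand, GRCm38) was concentrated in cluster 2 in every library. It reached 260 CPM in mothers (162 UMIs), 170 CPM in virgin males (48 UMIs) and 80.7 CPM in virgin females (37 UMIs). In cluster 3 the same libraries gave 5.39, 3.5 and 2.88 CPM, and the means of clusters 0, 1 and 4 were 23.9, 25.1 and 12.6 CPM. Cluster 2 thus held 68.6% of all neuronal Fgf10 UMIs in 97 of the 592 nuclei. With each nucleus thinned to 5000 UMIs, 52.1% of cluster 2 nuclei had an Fgf10 UMI, against 2.25% in cluster 3 and 9.09% in cluster 0. At the nuclei's own depth the shares were 67.0% in cluster 2, 6.59% in cluster 3 and 11.0% in cluster 0, and no nucleus gave more than 6.48% of the cluster's Fgf10 UMIs.

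Egflam (chromosome 15, 7206120 to 7398395, minus strand) had 54.6 CPM in mothers, 60.4 CPM in virgin males and 24 CPM in virgin females, and 3.59, 0 and 2.88 CPM in cluster 3. Every library of cluster 2 was above every library of the other clusters, although cluster 0 averaged 13.6 CPM. Kcp (chromosome 6, 29473162 to 29507952, minus strand) had 89.1% of its neuronal UMIs in cluster 2, the highest share among the 6 markers. It had 36.9 CPM in mothers, 17.8 CPM in virgin males and 28.4 CPM in virgin females, from only 23, 5 and 13 UMIs. With so few UMIs, Kcp stayed below the minimum of 50 UMIs in each comparison below.

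Cwh43 (chromosome 5, 73406075 to 73453435, plus strand) was even across the libraries of cluster 2, at 80.2 CPM in mothers, 63.9 CPM in virgin males and 76.4 CPM in virgin females. Cluster 3 gave 46.7, 5.25 and 14.4 CPM, so its library of mothers lay close to the cluster 2 values and the other 2 did not. Heg1 (chromosome 16, 33684370 to 33771576, plus strand) had 116 CPM in mothers, 46.2 CPM in virgin males and 37.1 CPM in virgin females, against 57.5, 19.2 and 28.8 CPM in cluster 3. The values of the 2 clusters overlapped, and the means were 7.35 CPM in cluster 0, 12.3 CPM in cluster 1 and 2.57 CPM in cluster 4. Lef1 (chromosome 3, 131110471 to 131224356, plus strand) was shared with cluster 3. It had 682 CPM in mothers, 462 CPM in virgin males and 519 CPM in virgin females of cluster 2, and 767, 684 and 734 CPM in cluster 3.

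**Figure D1:**
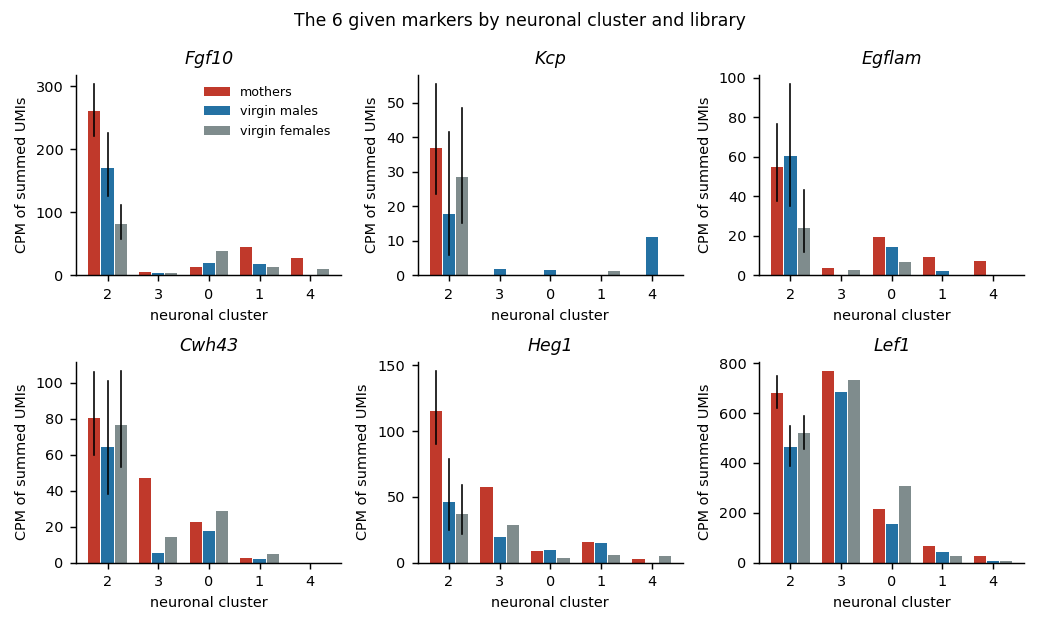
CPM of each marker (y axis) in the summed nuclei of each neuronal cluster (x axis), with 1 bar per library and, on the bars of cluster 2, exact Poisson 95% intervals for counting error. Fgf10, Kcp and Egflam are near 0 in cluster 3, whereas Lef1 is at 684 to 767 CPM there and at 462 to 682 CPM in cluster 2.

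The reference sequences at the RefSeq starts of 3 markers with the sharpest contrast to cluster 3 were searched. The letters sought were CTTTGA and CTTTGT on both strands, which TCF and LEF proteins are known to bind. The windows run from 250 bases before to 50 after a gene's RefSeq start in GRCm38.p6, and capitals mark a match. They are chr13:118714449-118714748 on the plus strand for Fgf10, chr15:7398346-7398645 on the minus strand for Egflam and chr6:29507903-29508202 on the minus strand for Kcp. The Fgf10 window lies inside the GENCODE gene span given above, and the sequence before the start of that span was not searched.
Fgf10: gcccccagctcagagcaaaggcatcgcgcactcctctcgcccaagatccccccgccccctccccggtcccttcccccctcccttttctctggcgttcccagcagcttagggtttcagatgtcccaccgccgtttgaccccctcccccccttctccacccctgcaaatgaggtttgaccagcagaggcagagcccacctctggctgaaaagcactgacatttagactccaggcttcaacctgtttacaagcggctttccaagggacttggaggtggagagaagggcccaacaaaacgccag
Egflam: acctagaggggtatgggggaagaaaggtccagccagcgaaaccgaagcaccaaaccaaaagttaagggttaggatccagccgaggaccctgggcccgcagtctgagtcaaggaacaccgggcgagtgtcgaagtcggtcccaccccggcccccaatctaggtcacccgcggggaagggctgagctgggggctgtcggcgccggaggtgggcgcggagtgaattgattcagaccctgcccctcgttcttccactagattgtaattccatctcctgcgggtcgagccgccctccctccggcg
Kcp: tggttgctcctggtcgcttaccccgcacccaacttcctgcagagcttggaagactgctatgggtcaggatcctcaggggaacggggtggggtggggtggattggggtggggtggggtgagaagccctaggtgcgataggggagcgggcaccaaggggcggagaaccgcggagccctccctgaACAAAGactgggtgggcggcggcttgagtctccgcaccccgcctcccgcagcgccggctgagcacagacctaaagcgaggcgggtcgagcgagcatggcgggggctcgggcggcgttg
The Kcp window held 1 match and the others printed none. All 6 markers were found in the RefSeq table: the windows of Cwh43 and Heg1 held no match and 1 of the 4 Lef1 windows held 3, while 31.2% of all 32851 RefSeq windows of this length held at least 1. A match describes letters only, and no match says only that these letters are not in this window.

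Single nuclei of cluster 2 carried several of the markers at once more often than those of the other clusters. At 5000 UMIs per nucleus, 94 cluster 2 nuclei were kept and had a mean of 2.19 of the 6 markers with a UMI, against 1.17 for cluster 3, 0.81 for cluster 0, 0.31 for cluster 1 and 0.14 for cluster 4. At least 3 markers were seen in 23 of 44 cluster 2 nuclei of mothers, 7 of 24 of virgin males and 7 of 26 of virgin females, and in 1 of 89 nuclei of cluster 3. Fgf10 and Egflam were seen together in 25 nuclei of cluster 2 at their own depth, Fgf10 without Egflam in 40, Egflam without Fgf10 in 5 and neither in 27. Lef1 had a UMI in 94.8% of the nuclei of cluster 2 and 95.6% of those of cluster 3. The markers helped to make the clusters, so these counts are descriptions.

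**Figure D2:**
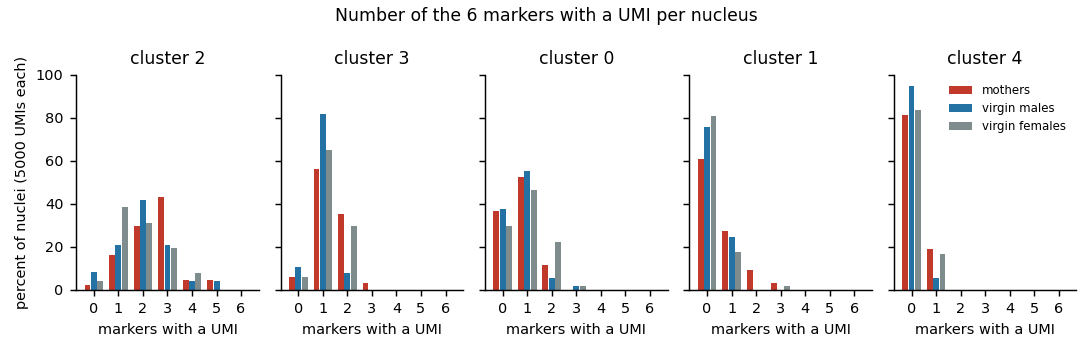
Percent of nuclei (y axis) by the number of the 6 markers with a UMI (x axis), each nucleus thinned to 5000 UMIs, for each cluster and library. Cluster 2 peaks at 1 to 3 markers, cluster 3 at 1 and clusters 1 and 4 at 0.

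All 97 nuclei carry the authors' label LHb, and the list of habenular markers matches that label only in part. Pou4f1, a transcription factor of habenular neurons, had 0 UMIs in each library of cluster 2, where 3 UMIs would be 4.81 CPM in mothers, 10.7 CPM in virgin males and 6.55 CPM in virgin females. It averaged 29.8 CPM in cluster 1 and 10.9 CPM in cluster 4. Gpr151, a habenular receptor, had 9.63, 0 and 0 CPM. A Gpr151 UMI was seen in 4.12% of cluster 2 nuclei, 11.6% of cluster 0, 9.55% of cluster 1, 0% of cluster 3 and 1.33% of cluster 4. The other lateral habenula list members Gap43, Pcdh10, Htr2c and Chrm3 were present in all clusters, so the list's summed level of 924 to 1292 CPM in cluster 2 rests on genes that these clusters share. The list's mean was 1157 CPM in cluster 2, against 889 CPM in cluster 0, 1931 CPM in cluster 1, 1176 CPM in cluster 3 and 1807 CPM in cluster 4. Of the 10 medial habenula genes, 7 had no UMI in cluster 2, and Slc17a7, a vesicular glutamate transporter, gave most of the summed 39.3 to 62.6 CPM.

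Genes listed for thalamic neurons were abundant, as they were in clusters 3 and 0. The summed level of the 14 list genes was 10958 CPM in mothers, 10784 CPM in virgin males and 11352 CPM in virgin females of cluster 2. Cluster 3 had 13592 to 14132 CPM, and the means were 9779 CPM for cluster 0, 3074 CPM for cluster 1 and 1939 CPM for cluster 4. The axon guidance molecule Ntng1 had 4256 CPM in mothers, 4032 CPM in virgin males and 4561 CPM in virgin females, against means of 856 CPM in cluster 1 and 243 CPM in cluster 4. Plekhg1 had 751, 803 and 862 CPM, and Synpo2, an actin-binding protein, had 711, 668 and 679 CPM. Gbx2, a factor of the developing thalamus, was close to absent with 5 UMIs in all. Necab1, a calcium-binding protein of some thalamic neurons, had 393 to 642 CPM, while Tnnt1 of first-order relay neurons had 5 UMIs in all. The lack of Pou4f1 does not match the label LHb, and clusters 3 and 0 share it. The thalamic sum rests in large part on Ntng1, with a mean of 4283 of 11031 CPM in cluster 2. That list also includes Lef1, a given marker of the cluster, and the vesicular glutamate transporter gene Slc17a6. Neither the thalamic sum nor the other habenular genes, present in all clusters, settle the identity. These nuclei are called cluster 2 throughout.

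Genes listed for other cell types were at low to moderate levels. Of the 7 GABAergic genes, 6 had no UMI in cluster 2, among them Gad1, Gad2 and Slc32a1. All 6 oligodendrocyte genes had a UMI, with a summed level of 22.5 to 34.9 CPM. Oligodendrocyte precursor genes (2 of 6 with a UMI) summed to 0 to 3.21 CPM, endothelial and mural genes (3 of 6) to 0 to 19.6 CPM and ependymal or choroid genes (3 of 6) to 0 to 4.81 CPM. Cortical or hippocampal list genes summed to 188 to 301 CPM in cluster 2 and to 289 to 302 CPM in cluster 3. The vesicular glutamate transporter Slc17a6 was at 395 CPM in mothers, 451 CPM in virgin males and 460 CPM in virgin females. Astrocyte list genes summed to 309 to 482 CPM, with 4 of the 6 at 0, and microglial ones to 210 to 228 CPM, with 3 of the 7 at 0, while cluster 3 had 265 to 331 CPM and 141 to 181 CPM. The part of free or glial RNA in these results was not tested.

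**Figure D3:**
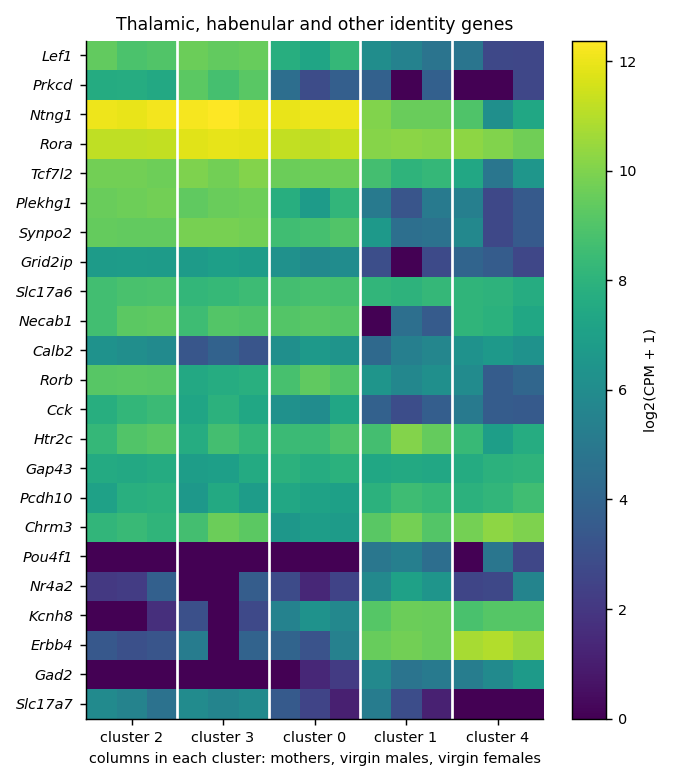
log2(CPM + 1) of 23 identity genes (rows) in each cluster and library (columns, with mothers, virgin males and virgin females from left to right in a cluster); all rows share 1 colour scale. Clusters 2 and 3 share Ntng1, Plekhg1 and Synpo2 and lack Pou4f1, and differ in Calb2, Rorb and Prkcd.

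Against all other neurons, more genes were called lower than higher in cluster 2. Of 11467 genes with at least 50 UMIs, 49 were at least 2-fold higher in each of the 3 libraries (0.427%) and 308 at least 2-fold lower (2.69%). Cluster 2 held 1362879 of the 7532914 UMIs of all neurons. A gene low in cluster 2 thus reaches the minimum more easily than one confined to it, such as Kcp. With 2 UMIs added, the counts were 70 higher and 177 lower, so their balance is not read as a trait of the cluster. The clusters were made from these same genes and nuclei, so these counts and all ratios between clusters are descriptions, with no test. Log2 ratios were taken within a library with 0.5 UMI added to each sum, and are given as the mean ± SD of 3 libraries. The gene farthest above was the long noncoding RNA 2010110G14Rik at 4.11 ± 0.67, followed by Fgf10 at 3.13 ± 1.04 and Egflam at 2.90 ± 0.55. Of the markers, 4 of the 5 measured were among the 49. Of the 14 thalamic list genes, 13 were measured, 1 was among the 49 (Plekhg1, 1.63 ± 0.15) and the median was 0.44, beside -0.08 over all genes tested.

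Other genes among the highest 15 were the smooth muscle protein gene Smtn (2.61 ± 0.46), the mitochondrial calcium-binding protein gene Efhd1 (2.55 ± 1.25), the pyrimidine enzyme gene Dpys (2.36 ± 0.62) and the copine gene Cpne5 (2.15 ± 0.03). Efhd1 had 17.7, 21.3 and 19.6 CPM in cluster 2 and 3.59, 33.2 and 14.4 CPM in cluster 3, so its values overlapped between the 2 clusters. Cpne5, a calcium-dependent phospholipid-binding protein gene, had 38.5 CPM in mothers, 63.9 CPM in virgin males and 50.2 CPM in virgin females. Gm29478, annotated as a long noncoding RNA, had 558, 611 and 650 CPM in cluster 2 and 86.2, 177 and 92.1 CPM in cluster 3, with a UMI in 88.7% of cluster 2 nuclei. Chsy3, a chondroitin sulfate synthase gene, had 266, 266 and 203 CPM and a ratio of 1.85 ± 0.30.

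The genes lowest against the other clusters included several that clusters 1 and 4 hold at high levels. The potassium channel gene Kcnh8 had 1 UMI in all of cluster 2, against means of 691 CPM in cluster 1 and 519 CPM in cluster 4. The neuregulin receptor gene Erbb4 had 9.63 CPM in mothers, 7.1 CPM in virgin males and 8.73 CPM in virgin females, against a mean of 1723 CPM in cluster 4. The transcription factor gene Sox6 had 1 UMI and the serotonin receptor gene Htr4 had 0. Cluster 3 was low in these genes too, with 0 to 7.19 CPM of Kcnh8 and 0 to 35.9 CPM of Erbb4.

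In the coarser clustering that the authors also deposited, all 97 nuclei of cluster 2 and all 91 of cluster 3 share a single cluster, with 112 of the 172 nuclei of cluster 0 and 18 of the 157 of cluster 1. Of cluster 0, 59 of 64 nuclei of virgin males fall in a separate coarse cluster, and 0 of 61 of virgin females. Between clusters 2 and 3, 58 of 7493 genes were at least 2-fold higher in cluster 2 in each library (0.774%) and 48 at least 2-fold lower (0.641%). Both directions together held 106 genes. The count was 114 of 5335 without mothers, 166 of 6186 without virgin males and 140 of 6220 without virgin females. With 1 library left out, fewer libraries have to pass, which by itself raises the count. The log2 ratio of Fgf10 was 4.97 ± 0.63, and that of Heg1 was 0.86 ± 0.47, not past 2-fold in every library. Hs3st4, a heparan sulfate 3-O-sulfotransferase gene, was the highest at 5.16 ± 0.20, with 112 CPM in mothers, 85.2 CPM in virgin males and 142 CPM in virgin females against 1.8, 1.75 and 2.88 CPM. Hs3st4 was not particular to cluster 2, since cluster 1 averaged 444 CPM and cluster 4 averaged 222 CPM.

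Other genes higher in cluster 2 than in cluster 3 had varied roles. The Wnt agonist gene Rspo3 had 48.1 CPM in mothers, 74.6 CPM in virgin males and 26.2 CPM in virgin females, against 1.8, 0 and 0 CPM in cluster 3. The reelin adaptor gene Dab1 had 124, 149 and 122 CPM against 7.19, 7.0 and 14.4 CPM, but its means were higher in clusters 0, 1 and 4, at 624, 678 and 466 CPM. The adhesion gene Tenm2 had 5240, 4458 and 4524 CPM, against 1685, 1544 and 1620 CPM, and its libraries did not overlap. The potassium channel gene Kcnq5 had 242, 263 and 179 CPM against 32.3, 28.0 and 40.3 CPM, yet its log2 ratio to all other neurons was -1.35 ± 0.33. The calcium-binding protein gene Calb2, whose product is calretinin, had 77.0, 67.5 and 58.9 CPM against 8.98, 14.0 and 8.63 CPM. Its means were 84.4 CPM in cluster 0, 35.5 CPM in cluster 1 and 85.6 CPM in cluster 4. The nuclear receptor gene Rorb had 568, 593 and 563 CPM against 174, 203 and 224 CPM.

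The genes lower in cluster 2 included all 4 leading genes of cluster 3. The adhesion gene Cdh4 had 6.42 CPM in mothers, 7.1 CPM in virgin males and 28.4 CPM in virgin females, against 210, 542 and 285 CPM in cluster 3. Abhd12b, a lipase-family gene, had 20.9, 3.55 and 8.73 CPM against 275, 180 and 322 CPM. Tspear had 32.1, 32.0 and 15.3 CPM against 196, 219 and 227 CPM. Prkcd, the kinase PKCδ that is a common marker of thalamic relay neurons, was shared but lower, at 193, 202 and 175 CPM against 611, 427 and 596 CPM. Of the other genes lowest against cluster 3, the collagen gene Col18a1 was at 14.4, 24.9 and 6.55 CPM against 171, 119 and 86.3 CPM and the laminin gene Lamb1 at 11.2, 0 and 0 CPM against 26.9, 31.5 and 40.3 CPM.

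**Figure D4:**
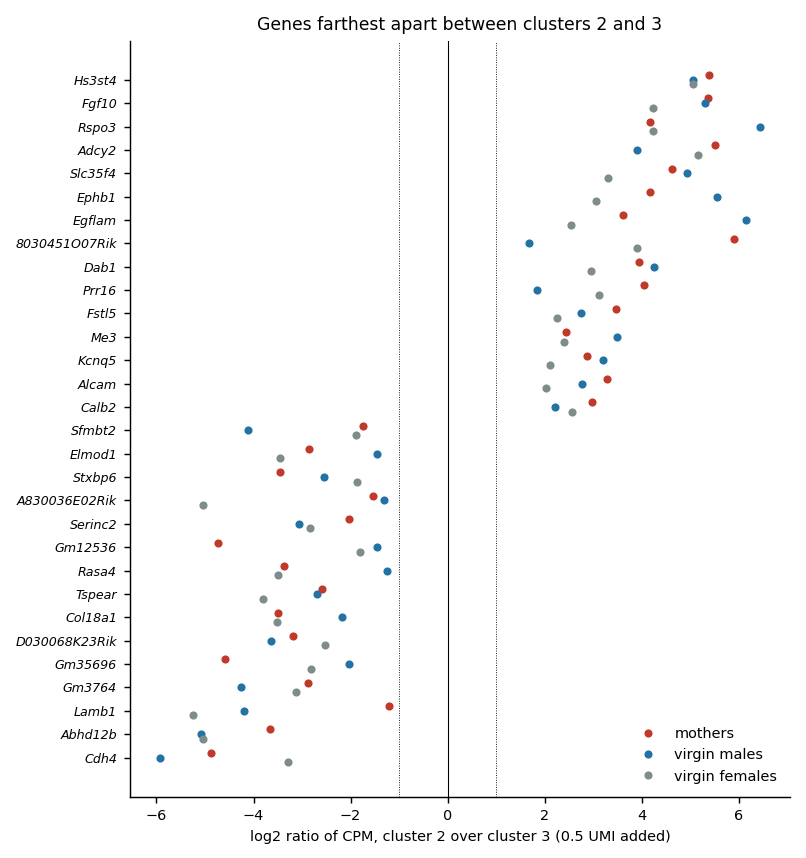
log2 ratio of CPM in cluster 2 over cluster 3 (x axis) for the 15 highest and 15 lowest genes past 2-fold in every library (rows), 1 point per library; dotted lines mark 2-fold. Hs3st4 and Fgf10 are at the top, and Abhd12b and Cdh4 at the bottom.

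The lists built around the markers were counted between clusters 2 and 3 beside 0.774% higher and 0.641% lower over all genes, so that lists of this size hold about 0 called members at the background share. Of 29 FGF pathway genes, 15 were measured, Fgf10 alone was past 2-fold, and the median log2 ratio was 0.15 beside 0.03 over all genes tested. Its receptor gene Fgfr2 had 611 CPM in mothers, 451 CPM in virgin males and 384 CPM in virgin females of cluster 2, against 657, 477 and 463 CPM in cluster 3. Of 48 Wnt pathway genes, 16 were measured, Rspo3 alone was past 2-fold and the median was -0.27. Axin2, a target of Wnt signals, had 25.7, 24.9 and 34.9 CPM against 37.7, 61.2 and 60.4 CPM. Of 31 genes for pikachurin partners and matrix, 19 were measured, with Egflam higher, Lamb1 and the sarcoglycan gene Sgcz lower and a median of -0.46. The dystroglycan gene Dag1 had 62.6, 121 and 85.1 CPM against 57.5, 57.7 and 69.1 CPM. None of the 5 measured genes of the Heg1 and CCM complex was past 2-fold in every library, and the median was 0.15.

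Genes with the profile most like that of Fgf10 were ranked by Pearson's r of log2(CPM + 1) over the 15 sums of cluster and library, which share libraries and depth. Tmem222 came first (r = 0.82), and Egflam ranked 4 (r = 0.81) of 11467 genes. Sgpp1, a sphingosine phosphate phosphatase gene, had r = 0.79, and the cadherin gene Cdh6 had r = 0.76. Tmem222 itself differed little, with means of 26 CPM in cluster 2 and 14.8 CPM in cluster 3, and r is given as a description only.

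Within cluster 2 the libraries differed for a small part of the genes. Mothers and virgin females were at least 2-fold apart for 105 of 3985 genes with at least 50 UMIs, 69 higher (1.73%) and 36 lower (0.903%) in mothers. Of the 4 measured markers, Fgf10 and Heg1 were among the 69. Fgf10 was 3.22-fold higher in mothers than in virgin females (counting interval 2.24 to 4.74) and 2.11-fold higher in virgin males than in virgin females (1.35 to 3.33). In the sum of the other neuronal clusters, its log2 ratios were -0.03 and -0.81. Heg1 was 3.11-fold higher in mothers than in virgin females (1.82 to 5.64), and in the other clusters its log2 ratio was 1.38 in the same direction. Cwh43 was 1.05-fold (0.669 to 1.67) and Lef1 1.31-fold (1.12 to 1.55).

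Nrp2 and Ephb1 had the largest ratios among the named genes higher in mothers, and both passed the minimum of 50 UMIs mainly through the library of mothers. Nrp2, a semaphorin and VEGF co-receptor gene, had 47 UMIs in mothers and 3 in virgin females, an 11.5-fold difference (3.71 to 57.9), and 32.0 CPM in virgin males. Ephb1, an ephrin receptor gene, had 80.2 CPM in mothers, 39.1 CPM in virgin males and 10.9 CPM in virgin females, and was 7.35-fold higher in mothers than in virgin females (2.95 to 23.6). Of 41 axon guidance genes, 23 were measured, 4 were higher (Ephb1, Sema6d, Nrp1 and Nrp2), 1 was lower (Efna5) and the median log2 ratio was 0.06, beside 1.73% higher, 0.903% lower and a median of 0.03 over all genes. Since genes such as Nrp2 (47 and 3 UMIs) had to differ to be measured, the count of higher members is no support for a trend of the list. Among genes lower in mothers, Trhde, an enzyme gene of thyrotropin-releasing hormone breakdown, had 17.7 CPM in mothers, 63.9 CPM in virgin males and 107 CPM in virgin females (0.165-fold of virgin females, 0.0774 to 0.322). The repeat-domain gene Thsd7b had 132 UMIs in mothers and 266 in virgin females (0.365-fold, 0.294 to 0.451). The adhesion gene Cntn3 had 109 and 196 UMIs (0.409-fold, 0.321 to 0.519).

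The libraries also differed in labels that the authors gave the nuclei in 2 subtype schemes. The first scheme labelled 85 of the 97 nuclei lhb_1. It gave the label lhb_3 to 3 of 46 nuclei of mothers (6.52%), 6 of 25 of virgin males (24%) and 2 of 26 of virgin females (7.69%). In cluster 0, 149 of 172 nuclei carried lhb_3. In the second subtype scheme, for which no reference data were named in the labels, 15 of 46 cluster 2 nuclei of mothers (32.6%) were labelled LHb2, 6 of 25 of virgin males (24%) and 1 of 26 of virgin females (3.85%), and nearly all others LHb1. Cluster 3 had the same order, with 8 of 35, 6 of 39 and 1 of 17 nuclei. Cluster 0 did not, with 8 of 47 (17.0%), 4 of 64 (6.25%) and 10 of 61 nuclei (16.4%). In mothers, Nrp2 had 183 CPM in the 15 LHb2 nuclei and 28.0 CPM in the 30 LHb1 nuclei, and Ephb1 had 210 and 18.7 CPM. Fgf10 had 394 and 201 CPM and Heg1 205 and 70.0 CPM, whereas Lef1 had 593 and 717 CPM and Prkcd 189 and 194 CPM. In the 6 LHb2 nuclei of virgin males, against the 19 LHb1 nuclei, Heg1 had 131 and 18.8 CPM, but Ephb1 had 14.5 and 47.0 CPM and Fgf10 116 and 188 CPM, from 9, 1 and 8 UMIs in LHb2 nuclei. For Ephb1 and Fgf10 the direction was thus opposite to that in mothers, from few UMIs. The label was assigned by the authors from the same nuclei, so these contrasts are descriptions.

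Other genes had few UMIs in the LHb2 nuclei of mothers. The complement gene C6 had 0 UMIs in them and 107 UMIs in the LHb1 nuclei of mothers, where 12 of the 30 had at least 1. The neurexophilin gene Nxph1 had 11 and 347 UMIs (59.3 and 810 CPM), the μ opioid receptor gene Oprm1 had 2 and 75 UMIs and the protease gene Tll1 had 1 and 61 UMIs. Hs3st4 had 53 and 12 UMIs and the matrix protein gene Spon1 had 545 and 140 CPM. In virgin males the LHb2 and LHb1 nuclei had 378 and 616 CPM of Nxph1, 58.1 and 188 CPM of C6, 72.7 and 89.3 CPM of Hs3st4 and 189 and 212 CPM of Spon1. These genes were chosen as the farthest apart after their values were seen. Nrp2, Ephb1 and Hs3st4 averaged 273, 289 and 444 CPM in cluster 1 and 137, 322 and 222 CPM in cluster 4. Slc35f4 and Me3 averaged 259 and 202 CPM in cluster 1 and 175 and 134 CPM in cluster 4. In mothers, Slc35f4 had 183 CPM in LHb2 and 11.7 CPM in LHb1 nuclei, and Me3 had 183 and 37.3 CPM. Kcnh8 and Erbb4, abundant in clusters 1 and 4, had 0 and 1 UMIs in the LHb2 nuclei of mothers. Both ranked lowest in all of cluster 2 against the other clusters, a ranking that includes these nuclei. Their low counts were thus largely fixed in advance and do not bear on the origin of these nuclei. Whether nuclei or RNA like those of clusters 1 and 4 have a part here was not tested. The LHb2 nuclei of mothers had a median of 10714 UMIs and the LHb1 nuclei 13442, and 3 of 15 LHb2 nuclei and 3 of 30 LHb1 nuclei were above 1% mitochondrial UMIs. Mitochondrial genes were higher in the LHb2 nuclei of mothers, with mt-Nd2 at 992 and 285 CPM and mt-Cytb at 852 and 320 CPM, and their part in these contrasts was not tested.

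**Figure D5:**
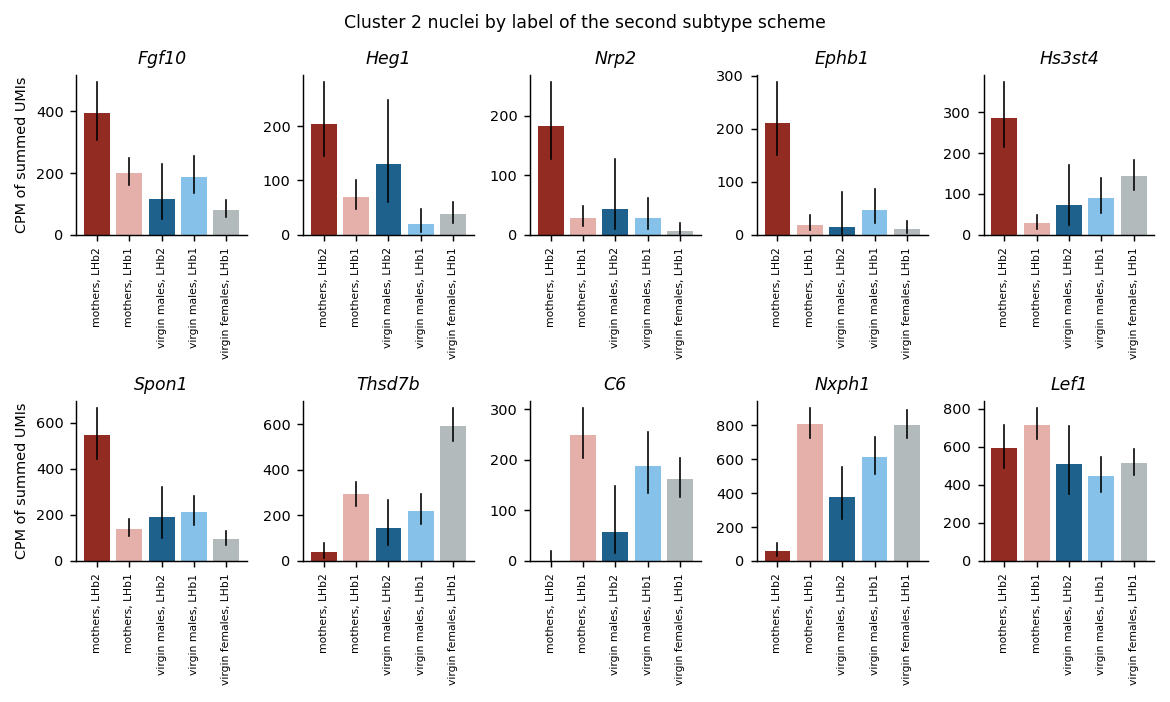
CPM (y axis) of 10 genes in cluster 2 nuclei by library and label of the second subtype scheme (x axis), with exact Poisson 95% intervals for counting error; the 1 LHb2 nucleus of virgin females is not drawn. Nrp2 and Ephb1 are high in the LHb2 nuclei of mothers, C6 and Nxph1 are at 0 and 59.3 CPM there, the 6 LHb2 nuclei of virgin males have 14.5 CPM of Ephb1 and 378 CPM of Nxph1, and Fgf10 is higher in LHb1 nuclei of mothers than of virgin females.

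With LHb1 nuclei alone, the number of genes at least 2-fold apart between mothers and virgin females was 59, of which 33 were among the 105; fewer genes reached 50 UMIs. Without that minimum, 40 of the 69 higher and 15 of the 36 lower genes were still past 2-fold, and all 69 and 36 kept their direction. These genes were chosen in nuclei that include the same LHb1 nuclei, so the kept direction was largely fixed in advance and is no support. In the LHb1 nuclei alone, Fgf10 had 201 CPM in 30 nuclei of mothers, 188 CPM in 19 of virgin males and 80.3 CPM in 25 of virgin females. That is 2.5-fold for mothers (1.68 to 3.8) and 2.34-fold for virgin males (1.46 to 3.78), both against virgin females, while mothers against virgin males gave 1.07-fold (0.726 to 1.59). Nrp2 was then 4.19-fold (1.13 to 23.1), Ephb1 1.67-fold (0.483 to 6.51) and Heg1 1.85-fold (0.987 to 3.57) for mothers against virgin females. Trhde was 0.214-fold (0.0965 to 0.427) and Thsd7b 0.492-fold (0.394 to 0.611). How far the label mix, the nuclei captured and the groups each contribute was not tested.

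Virgin males and virgin females were at least 2-fold apart for 59 of 2716 genes, 26 higher (0.957%) and 33 lower (1.22%) in virgin males. Beside the sex-linked Uty, Eif2s3y, Xist and Tsix, the adhesion gene Alcam had 45 UMIs in virgin males and 13 in virgin females (5.63-fold, 2.99 to 11.4). The glypican gene Gpc5 had 174 CPM in virgin males and 41.5 CPM in virgin females (4.2-fold, 2.43 to 7.55). The glycosyltransferase gene Galntl6 had 24.9 CPM in virgin males and 129 CPM in virgin females (0.193-fold, 0.0744 to 0.423). Bmp6, a BMP ligand gene, had 10 and 49 UMIs (0.332-fold, 0.15 to 0.664). The means in clusters 0 and 2 were 275 and 88.9 CPM for Alcam and 663 and 97.0 CPM for Gpc5. For Galntl6 they were 221 and 83.3 CPM, and for Bmp6 37.8 and 64.6 CPM. The part of the nuclei labelled lhb_3 in these differences was not tested. The comparisons with virgin females share that library, so their values are not independent.

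Mothers and virgin males were at least 2-fold apart for 78 of 3367 genes, 58 higher (1.72%) and 20 lower (0.594%) in mothers. Heg1 was 2.5-fold higher in mothers (1.38 to 4.93), while Fgf10 was 1.52-fold (1.1 to 2.15) and Egflam 0.904-fold (0.491 to 1.72). The interleukin receptor accessory gene Il1rapl2 had 25.7 CPM in mothers and 202 CPM in virgin males (0.127-fold, 0.068 to 0.224), and Galntl6 had 96.3 and 24.9 CPM (3.87-fold, 1.77 to 10). Mitochondrially encoded mt-Nd3 and mt-Cytb were also among the 58, at 164 and 475 CPM in mothers against 28.4 and 110 CPM in virgin males. Without the nuclei above 1% mitochondrial UMIs, all of which were in the libraries of mothers and virgin females within cluster 2, the log2 ratios of mt-Nd3 and mt-Cytb were -0.40 and -1.16, and the counts were 43 higher and 35 lower.

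Few activity-induced genes reached the minimum of 50 UMIs in cluster 2. Of 24 immediate early genes, 2 had 50 UMIs over mothers and virgin females and neither was past 2-fold. Fos had 0 UMIs in mothers, 17.8 CPM in virgin males and 19.6 CPM in virgin females. Nr4a3 had 1.6, 28.4 and 28.4 CPM, from 22 UMIs in all. At these counts no difference can be read from single genes.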

How the data were processed

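Single-nucleus RNA was read with the 10x Chromium 3′ assay from nuclei sorted for green fluorescence, with 1 library per group and a suspension of 1000 nuclei loaded in each, per the labels' protocols. Reads were processed with Cell Ranger 5.0.1 and genome build GRCm38 (mm10), per the submitters' processing notes. The authors deposited raw UMI counts per gene and nucleus, and a metadata table with cell class, cluster, subtype labels and percent of mitochondrial UMIs, and the metadata columns are those of Seurat, per the file headers. Whether intronic reads were counted and how doublets were treated have no statement in the labels. Metadata rows were matched to count columns on depth and number of detected genes, a combination that was unique for all 603 nuclei.

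UMIs were summed per library and cluster and scaled to 1000000 (CPM) in Python 3.11.15 with numpy 2.4.6 and scipy 1.17.1, with 0.5 UMI added for log2 ratios and at least 50 UMIs per gene. Genes were called past 2-fold, for clusters in each of 3 libraries. Poisson, Clopper-Pearson and conditional binomial 95% intervals cover counting error only. Of the genes called, the 15 highest and 15 lowest between clusters and the 10 highest and 10 lowest between libraries could be named. Those between libraries were taken from genes that stayed past 1.5-fold without the gene's UMIs in its richest nucleus of each library. Library totals were left unchanged in that step. All members of the gene lists and the 10 genes most like Fgf10 could be named too. No clustering or doublet caller was run. The procedure was checked on simulated counts in which all nuclei shared the same profile apart from the changes set. Those counts held no spread between nuclei or libraries beyond counting error, so the check does not cover such spread. Gene positions are from GENCODE and promoter windows from RefSeq. The members and gene lists were chosen with earlier results of these data known. Alternatives covered pseudocount, minimum UMIs, scaling, thinning, high-UMI nuclei, weighting, fold and libraries left out.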

Additional observations from a re-analysis of the deposited data

How the results depend on the processing

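No paired analysis was possible because each group had 1 library and the labels give no shared replicate numbers. Among the ratios of named genes past 2-fold, those of 2 genes changed sign under an alternative, mt-Nd3 and mt-Cytb between mothers and virgin males, at -0.40 and -1.16 without nuclei above 1% mitochondrial UMIs. The counts of genes past the fold depended most on the minimum of UMIs and on the fold. For cluster 2 against the other neuronal clusters (357 genes) they were 563 with at least 10 UMIs, 170 with at least 200, 221 with thinned nuclei, 810 at 1.5-fold and 192 at 3-fold, and 413 to 478 without 1 library. With 2 UMIs added the 357 became 247, with 70 higher and 177 lower. For cluster 2 against cluster 3 (106 genes) they were 302, 42, 47, 316 and 36 in the same order, and 114 to 166 without 1 library, the highest without virgin males. For mothers against virgin females (105 genes) they were 1058, 15, 42, 511 and 15, and 59 with LHb1 nuclei only. For virgin males against virgin females (59 genes) they were 1037, 6, 21, 372 and 13. For mothers against virgin males (78 genes) they were 1201, 13, 37, 461 and 17. Thinning and higher minimums leave fewer genes to test, and without 1 library a gene has to pass in fewer libraries. The mean number of markers per nucleus was 2.19 thinned and 3.17 at the nuclei's own depth. The limits to LHb1 nuclei and to low mitochondrial UMIs were chosen after seeing the data. With LHb1 nuclei only, the log2 ratio of Heg1 was 0.24 against cluster 3. A share or level based on fewer than about 10 UMIs is limited by depth.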

Other observations

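Several receptor and peptide genes were present in cluster 2. The serotonin receptor gene Htr7 had 138 CPM in mothers, 139 CPM in virgin males and 120 CPM in virgin females of cluster 2, against 50.3, 45.5 and 83.4 CPM in cluster 3 and a mean of 191 CPM in cluster 0. The adrenergic receptor gene Adra1b had 85.1, 85.2 and 111 CPM, and its means were 102 CPM in cluster 3, 83.8 CPM in cluster 0, 12.1 CPM in cluster 1 and 6.06 CPM in cluster 4. The histamine receptor gene Hrh3 had 83.5, 78.1 and 89.5 CPM, below its means of 104 CPM in cluster 3 and 114 CPM in cluster 0 and above those of 11.7 CPM in cluster 1 and 13.7 CPM in cluster 4. Both genes are therefore shared with clusters 3 and 0. The peptide gene Cck had 218, 288 and 343 CPM in cluster 2, against 153, 248 and 167 CPM in cluster 3, where it was not past 2-fold apart, and means of 99.6 CPM in cluster 0, 10.6 CPM in cluster 1 and 17.9 CPM in cluster 4. A Cck UMI was seen in 84.5% of cluster 2 nuclei and 93.4% of cluster 3 nuclei. Of 42 peptide and hormone receptor genes, 22 were measured against the other neurons, 0 were past 2-fold higher in each library and 4 were lower (Crhr1, Oprk1, Tacr1 and Gpr83), beside 0.427% higher and 2.69% lower over all genes tested. The stress hormone receptor gene Nr3c1 had 262, 170 and 210 CPM and the prolactin receptor gene Prlr 24.1, 28.4 and 21.8 CPM.

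The T-type calcium channel gene Cacna1g had 233 CPM in mothers, 242 CPM in virgin males and 210 CPM in virgin females, against 257, 227 and 316 CPM in cluster 3. The potassium channel gene Kcnc2 had 2244, 2664 and 2019 CPM, against 2059, 2387 and 2161 CPM in cluster 3 and a mean of 373 CPM in cluster 4.

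A further nucleus with the cluster number 2 was annotated as ependymal rather than neuronal and was left out. It came from the library of virgin females, with 6275 UMIs, of which 9.67% were mitochondrial.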
